A study of Mus musculus with 31 samples.

Results

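The genes described here are Tnf, its receptors Tnfrsf1a and Tnfrsf1b, the related receptor Tnfrsf12a, the NF-kB subunit genes Nfkb1, Nfkb2 and Relb, and the feedback or response genes Nfkbia, Tnfaip3 and Tnfaip6. They were chosen by name, 10 of the 22609 genes listed, and each was read in all 31 libraries. In build mm9 (GENCODE vM1), Tnf lies at chr17:35336326-35338952, Tnfrsf12a at chr17:23812414-23814416, Tnfrsf1b at chr4:144803366-144836773, Nfkbia at chr12:56590398-56593634 and Nfkb2 at chr19:46379227-46386580. The libraries are bulk RNA-seq of masseter muscle (MM) from adult male C57BL/6J mice, 1 mouse per library, after an injection into the muscle that the study used to model myalgia of the jaw. In the CFA experiment, complete Freund's adjuvant (CFA), an emulsion that causes inflammation, was given, and MM was taken from 3 mice at 1d and 3 mice at 5d, with 3 vehicle-treated mice. In the collagenase type 2 (Col) experiment, an enzyme that digests collagen was given at 0.2U (4 mice labelled 1C and 4 labelled RPC) or at 10U (4 mice at 2d, 3 at 6d and 4 at 12d), with 3 vehicle-treated mice. The days are those of the labels, and the text of the study gives other days for the groups labelled 2d and 12d. The labels give no day for 1C, RPC or either vehicle group.

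TNF is a cytokine that immune cells, above all macrophages, release after injury. Its receptors and other members of the receptor family activate NF-kB, a set of dimeric transcription factors held in the cytoplasm by inhibitor proteins. In the canonical pathway IkBa, the product of Nfkbia, is degraded and the NF-kB dimer enters the nucleus, where it induces Nfkbia and Tnfaip3 again and so ends the signal. In the non-canonical pathway the product of Nfkb2 is processed and pairs with that of Relb. Tnfrsf12a encodes Fn14, the receptor of the ligand TWEAK, and is known for its induction in injured and denervated muscle.

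The stretches upstream of 4 of the genes are shown. They are those of the 3 members with a match to the kappaB consensus, described below, and of Tnfrsf12a, the member with the largest called fold change. Other members without a match, among them the response gene Tnfaip6, are not shown. The 4 stretches therefore bear no contrast between response genes and Tnfrsf12a. RefSeq (GRCm38.p6) windows of 300 bases, from 250 before to 50 after a transcription start, were matched to 8 of the 10 members by symbol, and Nfkb1 and Relb were not matched. The kappaB consensus (GGGRNWYYCC in IUPAC code), searched on both strands, was found in 4.51% of 32851 promoter windows of this length. Of the 11 windows of the 8 members it was found in 5. Those 5 belong to 3 members, Nfkb2, Nfkbia and Tnfaip3, and none to Tnf, Tnfrsf1a, Tnfrsf1b, Tnfaip6 or Tnfrsf12a. A gene with more windows has more chances of a match: Nfkb2 had 3, and Tnfaip3 had 2, 1 of them without a match. The last 130 bases before 1 start of each gene are given 5′ to 3′, with matches in capitals. In Nfkb2 2 of the 3 matches overlap and form the longer run of capitals. They lie at chr19:46304607-46304736 on the plus strand (Nfkb2), and on the minus strand at chr12:55492648-55492777 (Nfkbia), chr10:19015411-19015540 (Tnfaip3) and chr17:23677450-23677579 (Tnfrsf12a). A match describes letters and is no measurement of binding.
Nfkb2: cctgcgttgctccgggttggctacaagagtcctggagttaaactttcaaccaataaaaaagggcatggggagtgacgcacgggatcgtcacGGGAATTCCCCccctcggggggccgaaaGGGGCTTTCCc
Nfkbia: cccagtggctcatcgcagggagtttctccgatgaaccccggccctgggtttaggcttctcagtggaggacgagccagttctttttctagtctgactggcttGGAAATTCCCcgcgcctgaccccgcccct
Tnfaip3: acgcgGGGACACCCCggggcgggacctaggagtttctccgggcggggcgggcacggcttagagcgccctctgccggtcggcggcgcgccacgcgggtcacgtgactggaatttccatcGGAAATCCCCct
Tnfrsf12a: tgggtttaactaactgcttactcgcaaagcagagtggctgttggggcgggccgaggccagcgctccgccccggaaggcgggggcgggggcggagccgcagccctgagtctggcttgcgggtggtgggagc

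Each library held between 14843778 and 29076671 reads on genes (median 20834472), and no pair of libraries held identical values. Levels are given as CPM, read counts over library size scaled by edgeR's TMM factors. All 12 muscle fibre markers were detected in every group, with a summed level from 38162 to 264582 CPM, and macrophage markers (10 genes of the list) summed to 126 to 3227 CPM. Every mouse was left out in turn. The Col10U_2d mouse 4 and the CFA_1d mouse 2 lay near the vehicle-treated mice for most of the members, so larger differences without them follow from which mouse is left out. Values without them are given to show how far a result rests on 1 mouse and support no change, and the results are those of all mice. Salivary gland markers varied from 10.7 to 128387 CPM between libraries. At 5d post-CFA they summed to 48647 to 66312 CPM, against 72.3 to 6660 CPM in the vehicle group of that experiment. At 6d post-Col (10U) they summed to 10.7 to 31.8 CPM, against 67.4 to 47426 CPM in the vehicle group. In both cases the groups did not overlap, and the part of these markers in the changes of the members there was not tested. Ambiguous reads, which fit more than 1 gene, were 0.675% to 0.875% of the reads in the 11 libraries of 10U Col and 0.147% to 0.317% in the other 20. This difference lies between the 10U groups and their vehicle group, and its part in those comparisons was not tested. In bulk tissue, a change in the number of cells of a type and in the RNA per cell cannot be told apart.

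Tnfrsf12a, Nfkb2, Relb, Tnfrsf1a and Tnfrsf1b were high in most mice at 1d post-CFA and at 2d post-Col (10U), and also at 6d post-Col (10U), Nfkbia was lowest at 6d post-Col (10U), and Nfkb1 was nearly level everywhere. Tnf and Tnfaip6 passed no test in edgeR with all mice of the groups compared, fitted alone, and Tnfaip3 rose at 6d post-Col (10U). With edgeR's quasi-likelihood test and Benjamini-Hochberg adjustment over all genes tested, 7 of the 10 members changed at 6d post-Col (10U), beside 27.3% of all genes, and 1 at 2d, beside 2.22%. None changed at 12d, beside 1.23% of all genes, at 5d post-CFA, beside 1.11%, or in the 0.2U groups and at 1d post-CFA, where 0.0% were called. Per length, vehicle-treated MM of the Col experiment held most RNA of Nfkbia at 44.9 ± 14.1 RPKM (SD, n = 3) and Tnfrsf1a at 28.3 ± 3.47 RPKM, and least of Tnf at 0.212 ± 0.238 RPKM.

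**Figure D1:**
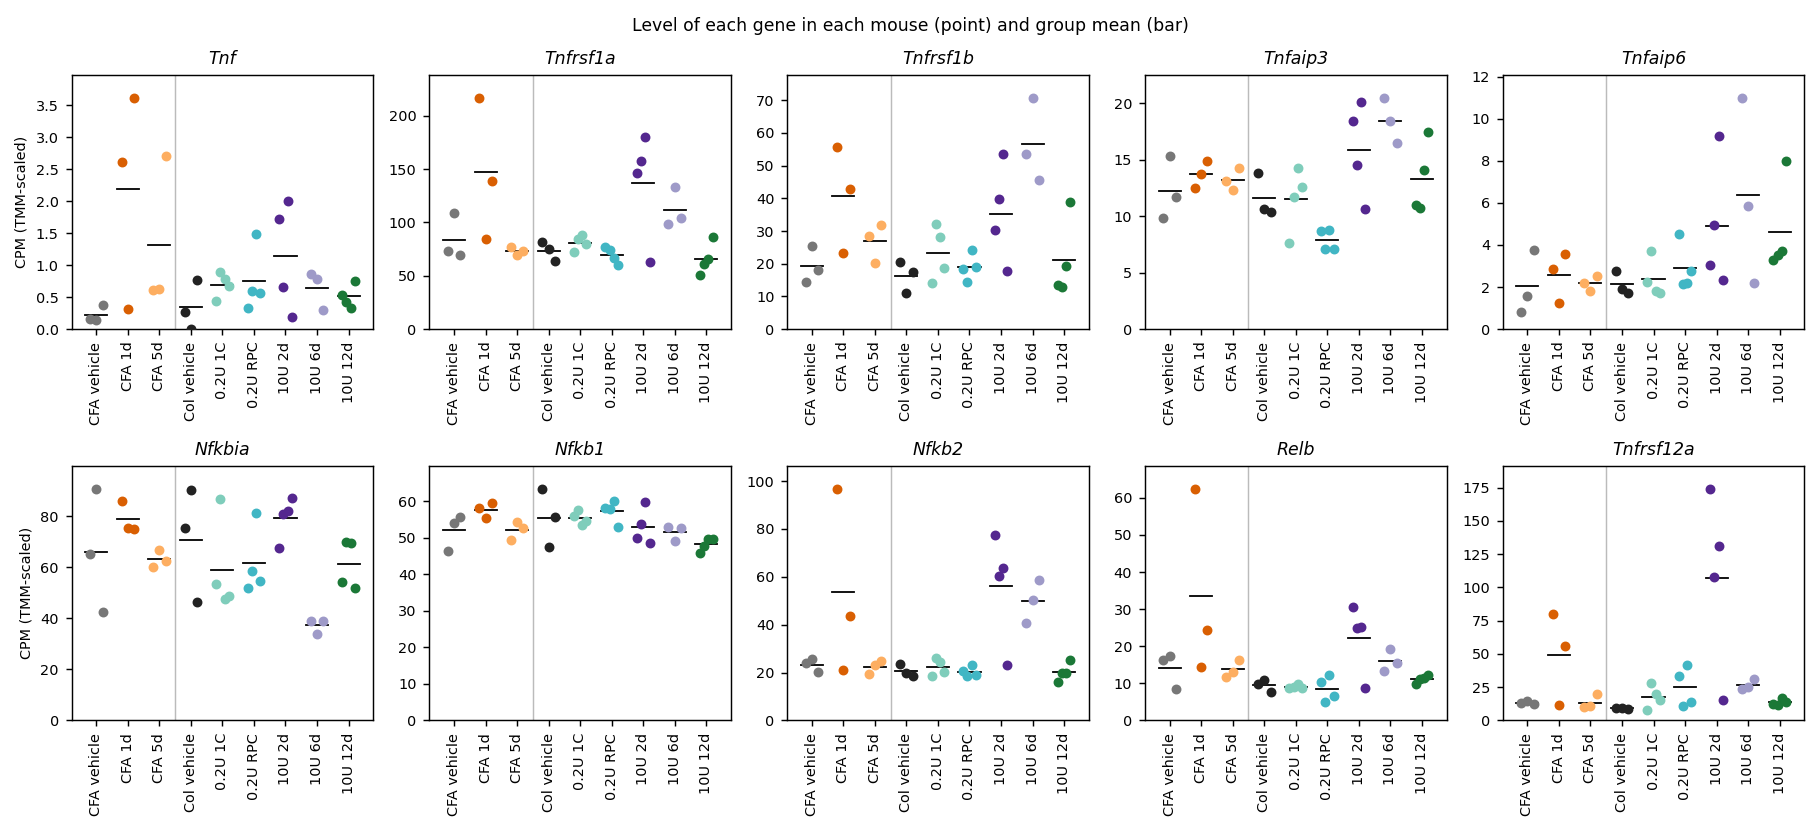
CPM of each of the 10 genes in each mouse (points) with the group mean (bar), for 9 groups on the x axis, with the CFA experiment left of the grey line and each panel on its own linear axis from 0. Tnfrsf12a reached 108 to 174 CPM in 3 of 4 mice at 2d post-Col (10U), while Nfkbia fell to 33.8 to 39.0 CPM at 6d.

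Tnf itself was scarce in every group. In the CFA experiment, the vehicle-treated mice had 0.164, 0.141 and 0.371 CPM, from 3 to 10 reads. At 1d post-CFA the values were 2.62, 0.320 and 3.62 CPM, and at 5d 0.605, 0.624 and 2.70 CPM. At 1d, 2 mice were above every vehicle-treated mouse and 1 lay within their range, whereas at 5d all 3 were above it. The log2 fold change was 3.22 (SE 0.91) at 1d and 2.55 (SE 0.79) at 5d, with edgeR adjusted p of 0.924 and 0.19, so neither passed the test. At 5d the call depended on 1 library, and without vehicle-treated mouse 3 the log2 fold change was 3.15 with an edgeR adjusted p of 0.0365.

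In the Col experiment, Tnf was at 0.273, 0 and 0.770 CPM in the vehicle group, where a count of 0 allows up to 3 reads. It was at 1.73, 0.655, 2.00 and 0.188 CPM at 2d post-Col (10U), at 0.856, 0.779 and 0.292 CPM at 6d, and at 0.530, 0.423, 0.332 and 0.757 CPM at 12d. These groups overlapped with the vehicle group. The log2 fold change was 1.64 (SE 1.08) at 2d and 0.80 (SE 0.90) at 6d, and in the 0.2U groups it was 0.95 (1C) and 1.05 (RPC), none past the test. The 1d CFA effect minus the 2d 10U effect was 1.58 (SE 1.51) on the log2 scale, edgeR adjusted p 0.809.

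Of the receptors, Tnfrsf1a encodes the TNF receptor found on most cell types. It was at 81.8, 74.8 and 63.9 CPM in vehicle-treated mice of the Col experiment. At 6d post-Col (10U) it was at 98.2, 133 and 104 CPM, all above the vehicle group. It rose by 0.61 on the log2 scale (SE 0.17, edgeR adjusted p = 0.039). With each mouse left out in turn, this call was lost in all 6 fits, with log2 fold changes of 0.49 to 0.70. At 2d the values were 146, 158, 180 and 62.6 CPM, 3 of them the highest of the Col experiment. The log2 fold change at 2d was 0.91 (SE 0.33, edgeR adjusted p = 0.106), and 1.14 (adjusted p = 0.00211) without mouse 4. At 12d it was back at 51.0, 60.7, 65.4 and 86.0 CPM and was lower than at 6d by -0.75 on the log2 scale (SE 0.20, edgeR adjusted p = 0.0313). This last call held in 1 of 7 fits with a mouse left out, that without the 12d mouse 4.

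Tnfrsf1b encodes the TNF receptor found above all on immune and endothelial cells, and it gave the larger change of both TNF receptors. It was at 20.5, 11.1 and 17.5 CPM in vehicle-treated mice. At 6d post-Col (10U) it was at 53.5, 70.8 and 45.5 CPM, 3.45-fold higher (log2 fold change 1.79, SE 0.27, edgeR adjusted p = 0.00606). The call held in all 6 fits with a mouse left out, from 1.56 to 1.95 on the log2 scale. At 2d the values were 30.4, 39.7, 53.6 and 17.7 CPM (log2 fold change 1.12, SE 0.38, adjusted p = 0.0918), and it missed the test. Without mouse 4, the mouse nearest to vehicle, the values were 1.34 and an edgeR adjusted p of 0.0126. At 12d it was at 13.4, 13, 19.2 and 38.8 CPM, lower than at 6d by -1.40 (SE 0.39, edgeR adjusted p = 0.0357), with 1 of 7 fits with a mouse left out still past the test. After CFA it was at 55.7, 23.2 and 42.8 CPM at 1d against 14.3, 25.4 and 18.1 CPM in vehicle-treated mice, and the groups overlapped through mouse 2.

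Macrophage markers rose with Tnfrsf1b: their sum was 163 to 536 CPM in the vehicle group of the Col experiment, 638 to 1639 CPM at 2d and 1641 to 3227 CPM at 6d, with 9 of 10 tested markers called higher at 6d. Across the 31 mice, log2 Tnfrsf1b correlated with the log2 sum at Pearson r = 0.87, a description over libraries that share groups, for which no test was made. Neutrophil markers stood at 14.2 to 19.4 CPM at 6d against 14.6 to 1517 CPM in the vehicle group. The part of either in the Tnfrsf1b change was not tested. The 12d mouse with the highest Tnfrsf1b, mouse 4, also had the highest macrophage sum of its group, 1216 CPM against 170 to 357 CPM in the other 3 mice.

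**Figure D2:**
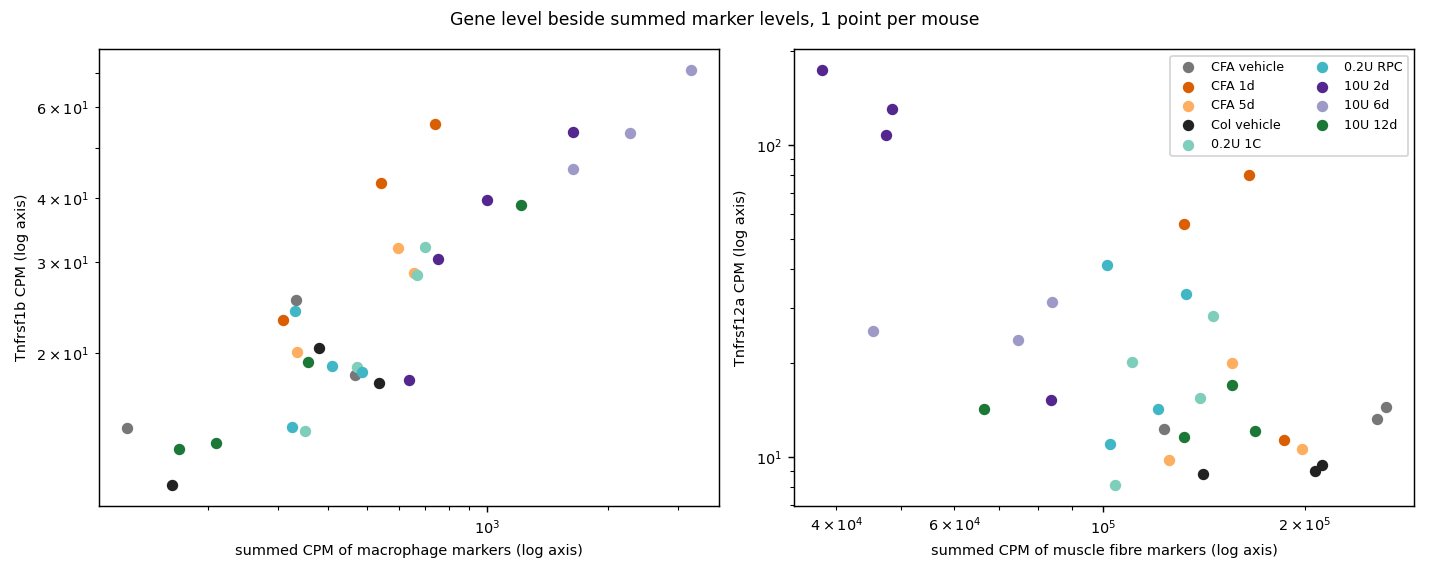
Left, Tnfrsf1b CPM (y axis) beside the summed CPM of macrophage markers (x axis), and right, Tnfrsf12a CPM beside the summed CPM of muscle fibre markers, on log axes, with 1 point per mouse coloured by group. The 6d mice of 10U Col are at the upper right of the left panel (1641 to 3227 CPM of macrophage markers). At 2d, 3 mice have Tnfrsf12a at 108 to 174 CPM with muscle sums of 38162 to 48519 CPM. Mouse 4 of that group has Tnfrsf12a at 15.2 CPM and a muscle sum of 83556 CPM.

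Tnfrsf12a showed the largest called fold change of all members. In vehicle-treated mice of the Col experiment it was at 9.01, 9.40 and 8.78 CPM. At 2d post-Col (10U) it was at 174, 108, 131 and 15.2 CPM. The groups did not overlap, and 3 mice were more than 10-fold above vehicle while mouse 4 was not. The log2 fold change was 3.57 (SE 0.72, edgeR adjusted p = 0.0497), or 11.9-fold. The call at 2d was near its threshold and held only without mouse 4 among 7 fits with a mouse left out (3.93, edgeR adjusted p = 0.000324), while the log2 fold change stayed between 3.24 and 3.93.

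At 6d post-Col (10U), Tnfrsf12a was at 23.7, 25.3 and 31.3 CPM, 2.95-fold above vehicle (log2 fold change 1.56, SE 0.18, edgeR adjusted p = 0.00285), and the call held in all 6 fits with a mouse left out. At 12d it was at 12.1, 11.6, 17.0 and 14.2 CPM, still above every vehicle-treated mouse but with a log2 fold change of 0.64 that missed the test (adjusted p = 0.161). It fell between 6d and 12d by -0.95 (SE 0.17, edgeR adjusted p = 0.0144), which held in 6 of 7 fits with a mouse left out. Between 2d and 6d the change of -2.0 (SE 0.67) missed it (adjusted p = 0.105), and without mouse 4 of 2d it was -2.37 (edgeR adjusted p = 0.000409).

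Tnfrsf12a was also higher in both 0.2U groups, without passing the test. It was at 8.13, 28.2, 20.1 and 15.4 CPM in 1C (log2 fold change 0.99, SE 0.37) and at 33.2, 11, 41.3 and 14.2 CPM in RPC (log2 fold change 1.5, SE 0.46, edgeR adjusted p = 0.291), where all 4 mice were above vehicle. At 1d post-CFA it was at 80.1, 11.3 and 55.7 CPM against 13.2, 14.5 and 12.3 CPM, a log2 fold change of 1.88 (SE 0.60, adjusted p = 0.924) that was called without mouse 2 (2.35, edgeR adjusted p = 0.0275). At 5d it was back at 9.77, 10.6 and 20 CPM. For Tnfrsf12a, vehicle-treated mice of the CFA experiment were all above those given vehicle beside Col, a difference of -0.53 (Col minus CFA, log2 scale, edgeR adjusted p 1.0). Summed muscle fibre markers were 38162 to 83556 CPM at 2d post-Col (10U) and 141046 to 212200 CPM in the vehicle group, and their part in the Tnfrsf12a change was not tested. In the annotation the exons of Tnfrsf12a share 78 bases with Hcfc1r1 on the opposite strand, 8.1% of its exon length, and whether reads were counted by strand is not given in the sources used here.

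**Figure D3:**
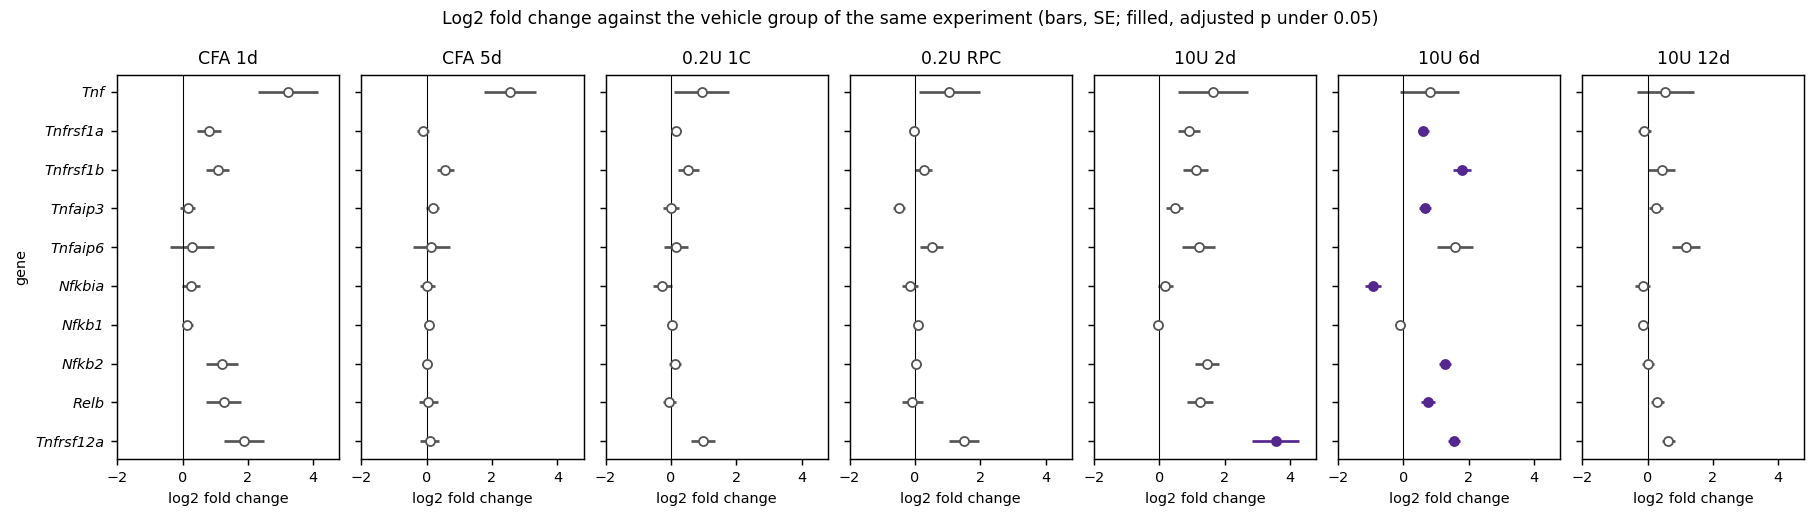
Log2 fold change of each gene (rows) against the vehicle group of its own experiment, with 1 panel per treated group, bars of 1 SE and filled points where the edgeR adjusted p was under 0.05. The 7 filled points of 10U at 6d include Nfkbia at -0.92, and Tnfrsf12a is the only filled point at 2d.

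Of the NF-kB subunits, Nfkb1, whose product forms the usual canonical dimer, was nearly level, between 45.9 and 63.4 CPM in all 31 mice. Its log2 fold change was 0.14 (SE 0.17) at 1d post-CFA and -0.10 (SE 0.16) at 6d post-Col (10U), and it was called in no comparison or alternative here. Its group means ran from 48.3 to 57.7 CPM.

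Nfkb2 and Relb, the non-canonical pair, moved further. In vehicle-treated mice of the Col experiment Nfkb2 was at 23.7, 20 and 18.4 CPM. It was at 77.4, 60.3, 63.8 and 23.3 CPM at 2d post-Col (10U) and at 40.8, 50.4 and 58.8 CPM at 6d. It rose 2.42-fold at 6d (log2 fold change 1.27, SE 0.19, edgeR adjusted p = 0.00551), a call that held in all 6 fits with a mouse left out. At 2d the log2 fold change was 1.45 (SE 0.37, adjusted p = 0.0601), and without mouse 4 it was 1.71 (edgeR adjusted p = 0.000841). At 12d Nfkb2 was at 16.1, 19.7, 19.8 and 25.2 CPM, overlapping with vehicle, and it fell from 6d by -1.29 (SE 0.18, edgeR adjusted p = 0.00894) in every fit with a mouse left out. At 1d post-CFA it was at 96.7, 21.2 and 43.5 CPM (log2 fold change 1.21, SE 0.49, adjusted p = 0.924).

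Relb was at 9.88, 10.8 and 7.56 CPM in vehicle-treated mice of the Col experiment. At 2d post-Col (10U) it was at 30.6, 25.0, 25.1 and 8.66 CPM, and at 6d at 13.3, 19.2 and 15.4 CPM. It rose by 0.76 at 6d (SE 0.22, edgeR adjusted p = 0.0384), which held in 1 of 6 fits with a mouse left out, and the log2 fold change of 1.26 at 2d missed the test (SE 0.40, adjusted p = 0.0818; 1.52 and 0.00201 without mouse 4). Values at 12d were 9.83, 11.1, 11.5 and 12.3 CPM, and the change from 6d was -0.50 (SE 0.16, edgeR adjusted p = 0.0514). After CFA it was at 62.4, 14.3 and 24.3 CPM at 1d against 16.4, 17.4 and 8.56 CPM in vehicle-treated mice of that experiment. These groups overlapped through mouse 2 (log2 fold change 1.26, SE 0.53, edgeR adjusted p = 0.924). From 1d to 5d post-CFA the log2 fold changes of Nfkb2, Relb, Tnfrsf1a and Tnfrsf12a were -1.20, -1.22, -0.94 and -1.80, and none passed the test (edgeR adjusted p of 0.221, 0.223, 0.156 and 0.175). They were -1.63, -1.64, -1.26 and -2.32 and past the threshold without the CFA_1d mouse 2, the 1d mouse nearest to vehicle.

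Nfkbia was the member that went down. In vehicle-treated mice of the Col experiment it was at 75.5, 90.2 and 46.5 CPM, and at 2d post-Col (10U) at 67.3, 80.9, 82.0 and 87.0 CPM. At 6d it was at 39.0, 33.8 and 39.0 CPM, below every mouse of the other 8 groups. It fell by 0.92 against vehicle on the log2 scale (SE 0.24, edgeR adjusted p = 0.0287), and that call was lost in 5 of 6 fits with a mouse left out, the log2 fold change staying between -1.16 and -0.72. Against 2d, within the 10U libraries, it was lower by -1.11 (SE 0.15, edgeR adjusted p = 0.0075), with 6 of 7 fits with a mouse left out past the test. At 12d it was at 54.2, 69.9, 69.5 and 51.8 CPM, higher than at 6d by 0.74 (SE 0.15, edgeR adjusted p = 0.0174), in 4 of 7 such fits. At 1d post-CFA it was at 85.9, 75.5 and 74.8 CPM, inside the range of the vehicle group. Cell markers also moved at 6d. The muscle fibre sum was 45336 to 84055 CPM at 6d against 141046 to 212200 CPM in the vehicle group. The fibroblast sum was 11189 to 18488 against 1516 to 9172 CPM and the macrophage sum 1641 to 3227 against 163 to 536 CPM. At 6d, where 27.3% of all genes were called, 4 of 12 muscle fibre markers tested were called lower. Called higher were 1 of 8 fibroblast, 9 of 10 macrophage and 1 of 5 T and NK cell markers tested. Also called lower were 2 of 7 endothelial, 5 of 8 neutrophil, 3 of 3 salivary gland and 3 of 8 adipocyte markers tested. Of bone markers 4 of 7 and of keratinocyte markers 4 of 6 were called lower. Over the 31 mice log2 Nfkbia had r = -0.59 with the fibroblast, -0.42 with the macrophage and 0.3 with the muscle fibre sum. With the endothelial sum r was 0.43, with the salivary gland sum 0.17 and with the neutrophil sum 0.03. The part of these markers in the Nfkbia change was not tested.

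**Figure D4:**
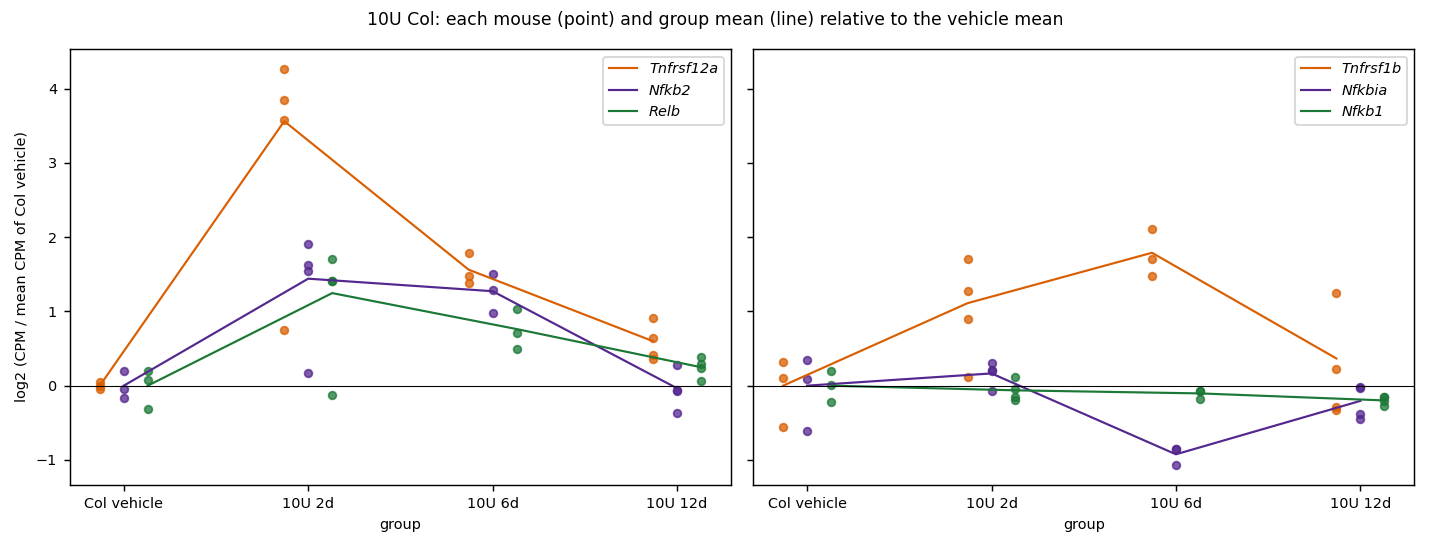
Log2 of CPM over the mean CPM of the vehicle group, for each mouse (points) and for the group means (lines), in vehicle and 10U Col at 2d, 6d and 12d, with groups placed at equal steps. Tnfrsf12a, Nfkb2 and Relb are highest at 2d, except in 1 mouse, Tnfrsf1b is highest at 6d, and Nfkbia is lowest at 6d (33.8 to 39.0 CPM) while Nfkb1 stays level.

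Tnfaip3 encodes A20, an enzyme that edits ubiquitin chains and ends TNF receptor signals. It was at 13.8, 10.6 and 10.4 CPM in vehicle-treated mice of the Col experiment and at 20.5, 18.4 and 16.5 CPM at 6d post-Col (10U), a rise of 0.67 on the log2 scale (SE 0.19, edgeR adjusted p = 0.0359) that held in 2 of 6 fits with a mouse left out. In RPC it was at 8.67, 7.08, 8.82 and 7.10 CPM, below every vehicle-treated mouse, and the log2 fold change of -0.50 missed the test (SE 0.18, edgeR adjusted p = 0.317). Salivary gland markers were at 10420 to 128387 CPM in RPC and at 67.4, 47426 and 17104 CPM in the vehicle group, which overlap, and their part in it was not tested. Tnfaip6 encodes TSG-6, a secreted protein that binds hyaluronan in inflamed tissue. It was at 2.78, 1.89 and 1.72 CPM in the vehicle group, at 3.05, 4.96, 9.18 and 2.33 CPM at 2d, at 11, 5.86 and 2.21 CPM at 6d and at 3.28, 3.50, 3.71 and 8.01 CPM at 12d. Its spread was wide, and no comparison passed in edgeR with all mice of the groups compared, fitted alone. The nearest was 6d (log2 fold change 1.58, SE 0.56, edgeR adjusted p = 0.0689). At 6d the call depended on the setting, since 3 of 7 alternatives with all mice passed, among them DESeq2 (adjusted p = 0.0236) and the edgeR fit of all 31 libraries (adjusted p = 0.0405). With a mouse left out, the 6d log2 fold change ran from 0.93 to 2.0, and 1 of 6 fits passed, that without the 6d mouse 3 (edgeR adjusted p = 0.031). At 2d it passed only without mouse 4 (1.44, edgeR adjusted p = 0.0459). Across the 31 mice the log2 level of Tnfaip6 had r = 0.67 with log2 fibroblast markers, 0.67 with macrophage markers and -0.64 with muscle fibre markers. The fibroblast sum was 11189 to 18488 CPM at 6d and 1516 to 9172 CPM in the vehicle group, while 1 of 8 fibroblast markers was called higher.

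In counts, 6 of 10 members rose and 1 fell at 6d post-Col (10U), where 27.3% of the 14281 genes tested were called, 14% higher and 13.3% lower, and the median log2 fold change of the members was 0.78. At 2d post-Col (10U) 1 of 10 was called, beside 2.22% of 14373 genes, and without mouse 4 it was 6 of 10 beside 36.3%. At 12d no member was called, beside 1.23% of 14176 genes. An unadjusted p under 0.05 was found there for 2 of 10 members and for 2461 of the 14176 genes. No member was called at 1d post-CFA, nor in DESeq2, which called 0.402% of genes there, and edgeR called 0.0%. All 10 log2 fold changes there were above 0, with a median of 0.94, beside -0.01 for all genes. An unadjusted p under 0.05 was found at 1d post-CFA for 5 of 10 members and for 588 of 13944 genes. Without mouse 2 of that group edgeR called 1 member beside 0.138%. At 5d post-CFA no member was called, beside 1.11% of genes, while without vehicle-treated mouse 3 it was 1 beside 15.6%. With all mice, 1 of 10 members had an unadjusted p under 0.05, beside 1964 of 14026 genes. In 1C and RPC edgeR called 0.0% of genes and 0 members. Unadjusted p were under 0.05 for 1 member in 1C, beside 1819 of 14493 genes, and for 2 in RPC, beside 1923 of 14269. DESeq2 called 0 members beside 3.58% of genes in 1C and 1, Tnfrsf12a, beside 3.1% in RPC. Between 2d and 6d of 10U, 1 member was called beside 8.73% of genes, and 4 were called beside 28.8% without the 2d mouse 4. Between 6d and 12d 5 were called, 4 lower and 1 higher, beside 26.4%, 13% lower and 13.4% higher, and 7 were called beside 54.2% without the 12d mouse 4. From 1d to 5d post-CFA no member was called beside 5.84%, and without the 1d mouse 2 it was 4 beside 9.63%. With all mice, 4 of 10 members had an unadjusted p under 0.05 in that comparison, beside 2764 of 14046 genes. Neither the vehicle groups (0.0426% of genes called) nor the difference between the early effects of CFA and 10U Col (0.0946%) gave a called member.

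Other genes of the pathway were counted at 6d post-Col (10U), where 27.3% of all genes were called and the median log2 fold change of all genes was 0.01. Of 18 other NF-kB subunits, inhibitors and regulators, 4 rose and 1 fell (27.8%, median 0.47), a share at the level of all genes. Bcl3, an atypical IkB protein, rose by 1.75 (SE 0.23, edgeR adjusted p = 0.004), Ikbke, an IkB kinase, by 1.79 and Nfkbie, another inhibitor, by 1.62, while Tnfaip2 fell by 0.91. Of 20 genes of TNF receptor signalling and shedding, 6 rose and 2 fell (40%, median 0.02), among them Ripk3 (2.0) and Mlkl (1.56), which act in necroptosis, and Traf1 (1.80), an adaptor, against Timp3 (-1.5), an inhibitor of TNF shedding. Of 25 other receptor genes 22 were tested, and 9 rose and 4 fell (59.1%, median 0.67), with Tnfrsf18 at 3.04 (SE 0.43, edgeR adjusted p = 0.00508) and Tnfrsf19 at -1.94. Among ligands, Tnfsf8 was the only 1 of 11 tested that was called (2.47), or 9.09%. Of 20 tested NF-kB responsive genes 8 rose and 1 fell (45%, median 0.74), led by Bcl2a1b (4.58), Ptgs2 (3.52) and Ccl2 (3.16), while Sod2 fell by 0.95. At 2d, where 2.22% of all genes were called, Ccl2, a monocyte chemokine, was the only called gene of that list (5.94, SE 0.89, edgeR adjusted p = 0.0337) and no gene of the other lists was called.

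From 6d to 12d post-Col (10U) 26.4% of all genes were called, 13% lower. The same lists held 4 lower of 18 regulators (22.2% called), with Bcl3 at -1.40 and Ikbke at -1.56, and 2 lower of 20 signalling genes (10%), with Ripk3 at -1.71, both shares under that of all genes called in either direction. Of 21 receptor genes 6 were lower and 3 higher (42.9%), and of 20 responsive genes 6 were lower and 1 higher (35%), where Il1b was at -2.41 and Sod2 at 0.99. From 1d to 5d post-CFA 5.84% of all genes were called, 681 higher and 139 lower of 14046. Of 19 responsive genes tested Junb was the only 1 called, at -3.55 (SE 0.80, edgeR adjusted p = 0.0452). Of 18 regulators 2 were called lower, Zfp36 (-0.99) and Cyld (-0.70). Of 20 receptor genes 3 were called lower, Eda2r (-1.71), Fas (-1.58) and Tnfrsf23 (-0.97). No gene was called among 20 signalling genes and 6 ligands tested.

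The genes whose log2 CPM followed a member most closely over the 31 mice, among 15526 genes, were Gnl3 (Pearson r = 0.947), Mustn1, Clic4, Rrad and Socs3 for Tnfrsf12a. For Nfkb2 they were Mvp (r = 0.966), Pvr, Anxa4, Bax and Esd. For Tnfrsf1b they were P2ry6 (r = 0.936), Tlr2, Slc15a3, Tnfaip8l2 and Cyth4, and for Nfkbia E130309D02Rik (r = 0.833), Ppp2cb, Rabif, Dnaja4 and Txnl4a. Among the members, Nfkb2 and Tnfrsf1a had r = 0.923, Nfkb2 and Relb 0.854 and Nfkb2 and Tnfrsf12a 0.852, whereas Nfkbia had 0.072 with Nfkb2 and -0.153 with Tnfrsf1b. These values describe libraries that share groups and marker levels, and no test was made on them.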

How the data were processed

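Stranded poly(A) libraries were sequenced as single-end reads of 50 bases, aligned by the authors with TopHat2 to build mm9 and counted with HTSeq per the labels. The deposited values are raw read counts per gene symbol, neither normalized nor filtered. The counting annotation and strand setting are not given in the sources used here. Closing lines that name no gene were left out, and these unassigned but uniquely aligned reads were 6.85% to 22.69%.

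In R 4.3.3, edgeR 4.0.16 (TMM, quasi-likelihood test) was fitted to the groups compared alone, for genes that reached 10 counts in 3 or more libraries, with Benjamini-Hochberg adjustment, and a gene was called at an adjusted p under 0.05. SE was the absolute log2 fold change over the square root of F. Alternatives were DESeq2 1.42.0, its size factors, no filter, 1 fit of 31 libraries, a replicate block, a fold over 2 with RPKM over 1, pooled vehicles and leave-one-out. The edgeR and DESeq2 fits were tested on simulated data. RPKM used exon lengths of GENCODE vM1. The members and gene lists were chosen with earlier results of these data known. All members were named, with at most 3 called genes per list and direction and 5 like genes for 4 members.

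Replicate numbers come from the labels and denote different mice. Same-numbered mice deviated together in every pair for CFA_1d against CFA_vehicle (mean r = 0.27) and for the vehicle groups (mean r = 0.312), and in no other comparison.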

Additional observations from a re-analysis of the deposited data

Results flagged for a closer look

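Tnfaip6 was flagged because 1 of the 4 mice at 12d post-Col (10U), mouse 4, lay far from the others, at 8.01 CPM against 3.28 to 3.71 CPM. That mouse also had the highest macrophage (1216 CPM) and fibroblast (19488 CPM) marker sums of its group. Nfkbia was flagged in 1C, where 1 mouse was at 86.6 CPM and the others at 47.6 to 53.3 CPM. In all, 40 sets of 4 mice were examined and 2 flagged, and chance flags about 1 in 20.

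Effects against vehicle that differed between days of 10U Col by the direct test were those of Nfkbia from 2d to 6d (-1.11) and, from 6d to 12d, of Tnfrsf1a (-0.75), Tnfrsf1b (-1.40), Nfkbia (0.74), Nfkb2 (-1.29) and Tnfrsf12a (-0.95). Ambiguous reads, which enter no comparison, reached 0.875% in a 10U library, above the highest share in the other libraries, 0.317%.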

How the results depend on the processing

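The count of called members kept within 1.5 times its value under most alternatives, largely in comparisons where it was 0 and stayed 0. In comparisons with called members it often moved. At 2d post-Col (10U), where 1 member was called, DESeq2 called 4, the fit of all 31 libraries 5 and pooled vehicle groups 5. Of all genes edgeR called 164 higher and 155 lower there. DESeq2 called 1687 higher and 1639 lower, the fit of all 31 libraries 2394 and 2549 and pooled vehicle groups 2596 and 2447. Leaving out a mouse gave 0 to 6 members, beside 12 to 5143 of all genes. The replicate block gave 5 members, but mouse 4 has no mouse of its number in the vehicle group. The block gives such a mouse a term of its own, so it does not bear on the fold change. The same holds for every comparison in which only 1 group has a mouse 4. At 6d (7 called), the replicate block and the study's thresholds of fold and RPKM each gave 3 members, and leaving out a mouse 3 to 5. Of all genes edgeR called 1994 higher and 1906 lower at 6d, the block 840 and 633 and the thresholds 1153 and 1035. With a mouse left out, 809 to 5835 of all genes were called at 6d. DESeq2 called 1 member in RPC, 1 at 12d, 2 between 2d and 6d (1 in edgeR) and 2 from 1d to 5d post-CFA. The fit of all 31 libraries gave 2 and 1 members in the last comparisons. Of all genes DESeq2 called 189 higher and 254 lower in RPC and 519 and 383 at 12d. Between 2d and 6d it called 1280 and 1427, and from 1d to 5d post-CFA 949 and 535. In these last comparisons the fit of all 31 libraries called 966 and 844, then 287 and 352. The replicate block gave 2 members between 2d and 6d, beside 1042 genes higher and 1166 lower. The study's thresholds gave 2 of 5 members between 6d and 12d, beside 655 genes higher and 726 lower. Leaving out a mouse gave 0 to 1 member at 1d post-CFA, beside 0 to 19 of all genes. At 5d post-CFA it gave 0 to 1, beside 0 to 2162. Between 2d and 6d it gave 0 to 4, beside 126 to 4105. Between 6d and 12d it gave 1 to 7, beside 234 to 7687. From 1d to 5d post-CFA it gave 0 to 4, beside 218 to 1340. The cause was not tested.

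Tnfrsf12a at 5d post-CFA turned from 0.09 to -0.33 without the CFA_5d mouse 3, the range with a mouse left out being -0.33 to 0.26, and was called in neither fit. Over all genes, alternatives other than leave-one-out called 251 to 5043 at 2d (319 in edgeR), 1473 to 5875 at 6d (3900) and 43 to 902 at 12d (174). At 2d the replicate block called 2317 genes higher and 2183 lower, beside 2538 and 2605 in edgeR without mouse 4. Between days of 10U the alternatives called 751 to 2707 from 2d to 6d (1267) and 1381 to 7056 from 6d to 12d (3785). After CFA they called 0 to 56 at 1d (0), 0 to 899 at 5d (155) and 603 to 1484 from 1d to 5d (820). They called 0 to 519 in 1C (0), 0 to 443 in RPC (0), 0 to 65 between vehicles (6) and 11 to 162 for the early difference (14). For CFA_1d against CFA_vehicle and for the vehicle groups, the replicate block changed no call of a member. In the others the mean r of same-numbered mice was -0.117 to 0.153, with single pairs of RPC and vehicle from -0.243 to 0.528. Whether such mice share more than a number was not tested. Groups of 3 or 4 mice and 0 to 78 reads of Tnf limit what could be called.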
